A study of Mus musculus with 4 samples.

Results

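The imprinted domains at the distal end of mouse chromosome 7 are described here through 10 genes, *H19*, mmu-mir-675, *Igf2*, *Ins2*, *Cdkn1c*, *Phlda2*, *Slc22a18*, *Kcnq1*, *Tssc4* and *Cd81*, out of 22718 genes in the expression tables. They were picked by symbol, and the choice was selected on the low value of *H19* in the same comparison, so their ratios are given as a description. RNA-seq was carried out on 2 mouse embryonic stem (ES) cell libraries of strain C57BL/6, 1 wild type and 1 labelled Prep1-/-, which comes from a single derived line (KO2). Prep1 is a homeodomain transcription factor of the TALE family, encoded by *Pknox1*. According to the study's methods both lines were grown on gelatin with serum and leukemia inhibitory factor. The third data set was a list of Prep1 ChIP-seq peaks from wild type ES cells, which the labels give as C57BL/6 and the protocol as the R1 line.

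An imprinted gene is read mainly from the chromosome inherited from 1 parent. In the *H19*-*Igf2* domain, a control region that is methylated on the paternal chromosome binds the insulator protein Ctcf on the maternal one, so that *H19*, a non-coding RNA, is read from the maternal copy and *Igf2*, a fetal growth factor, from the paternal copy, both from shared enhancers. In the neighbouring *Kcnq1* domain a paternal non-coding RNA silences *Cdkn1c*, *Phlda2*, *Slc22a18* and other genes on its own chromosome. The values below do not separate the parental alleles, and in bulk RNA fewer cells of a type and less RNA per cell cannot be told apart.

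The microRNA of the domain lies inside *H19*, and its sequences are shown because its expression values are read from the same transcript. The hairpin of mmu-mir-675 occurs once on chromosome 7 of mm9, at chr7:149762969-149763052 on the minus strand, 996 bases downstream of the *H19* start and wholly inside an *H19* exon of 1315 bases (chr7:149762734-149764048). The RefSeq sequences (table build GRCm38.p6) are given 5′ to 3′. Capitals mark the mature arms in the hairpin and the seed, bases 2 to 8, in each mature form.
Mir675 hairpin: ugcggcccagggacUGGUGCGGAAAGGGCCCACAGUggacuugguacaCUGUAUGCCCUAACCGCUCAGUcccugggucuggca
mmu-miR-675-5p: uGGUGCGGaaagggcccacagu
mmu-miR-675-3p: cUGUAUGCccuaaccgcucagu
The seeds of the 2 arms differ, and among the 1679 mature mouse microRNA names of the RefSeq table, 0 others carried either of them.

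The wild type table summed to 29596294 reads and that of the library labelled Prep1-/- to 25717811. Values are read counts scaled by the authors for gene length and library size (RPKM), and each comparison is the ratio of the RPKM of the Prep1-/- library to that of the wild type library (KO/WT ratio). Intervals are exact 95% binomial (Clopper-Pearson) intervals, which cover counting error only and compare 2 libraries, not 2 genotypes. They may be too narrow, because the summed counts exceed several-fold the number of reads stated in the study's methods. A gene was called lower when its wild type RPKM was above 1 and its ratio below 0.7, and higher when its Prep1-/- RPKM was above 1 and its ratio above 1.5. Across all genes, 13.8% (1899 of 13795) were called lower and 7.20% (985 of 13677) higher. *Pknox1* itself had 505 reads in wild type and 332 in the library labelled Prep1-/- (RPKM 7.85 and 5.78, ratio 0.736). These are RNA values, and the study's immunoblots showed loss of Prep1 protein in its null lines, KO2 among them. The 2 libraries also differed in chromosome Y transcripts, since 4 chromosome Y genes had 0 reads in wild type and 24 to 310 reads in the other library.

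*H19* was 7.14-fold lower in the library labelled Prep1-/-. It had 6925 reads and an RPKM of 106 in wild type, against 866 reads and an RPKM of 14.9. The ratio was 0.140 (95% interval 0.130 to 0.150). Among the 11630 genes with wild type RPKM above 1 and at least 100 wild type reads, that was the sixth lowest ratio (rank 6). The 3 genes with the most similar ratio were *Galntl4*, also on chromosome 7, with 121 and 14 reads (ratio 0.137), *Mfap2* on chromosome 4 with 131 and 18 reads (0.161) and *Alox15* on chromosome 11 with 100 and 16 reads (0.188). None of them approached the read number of *H19*.

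The lower value was also seen for the microRNA row inside *H19*. Mmu-mir-675 had 72 reads in wild type (RPKM 66.2) and 11 in the other library (RPKM 12.2), a ratio of 0.184 (0.0817 to 0.324). Its ratio was 1.22 times that of *H19*, with an exact conditional interval of 0.582 to 2.33 that includes 1, so at this depth the 2 ratios could not be distinguished. Of the reads given to the 2 rows together, the microRNA row took 1.03% in wild type (0.806 to 1.29%, 72 of 6997) and 1.25% in the Prep1-/- library (0.628 to 2.23%, 11 of 877). These libraries were made from polyA+ RNA and the hairpin covers 84 of the 2372 exonic bases of *H19*, that is 3.54%. The reads of this row are therefore reads of the host transcript, which the counting could split between the 2 rows, and the mature microRNA was not measured. Adding the reads of both rows left the ratio at 0.140 (0.131 to 0.150).

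*Igf2*, the growth factor gene that shares its enhancers with *H19*, was 2.77-fold lower. It was the member with the most reads, 45829 in wild type and 14822 in the library labelled Prep1-/-, with RPKM 122 and 44.1 and a ratio of 0.362 (0.355 to 0.368). It thus kept 2.59 times as much of its wild type level as *H19* did (exact conditional interval 2.40 to 2.79). In wild type the RPKM of *Igf2* was 1.15 times that of *H19*, and in the Prep1-/- library it was 2.96 times. This balance depends on the length by which the reads were divided. The RPKM values of *Igf2* correspond to a length 5.77 times that of *H19*, whereas its annotated exons sum to 5493 bases, 2.32 times those of *H19*. On the scale of reads per kilobase of annotated exon, *Igf2* stood 2.86 times above *H19* in wild type and 7.39 times in the Prep1-/- library.

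*Ins2*, one of the mouse insulin genes, lies upstream of *Igf2* and was hardly read in either library. It had 0 reads in wild type, which allows up to 3 reads, and 7 reads in the Prep1-/- library (RPKM 0.176). Against that floor, with the 7 reads taken as exact, it was at least 2.61-fold higher, and the exact interval of its ratio began at 1.61. Its level was far under the RPKM of 1 set for a call. It was the one member with more reads in the Prep1-/- library.

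In the *Kcnq1* domain, both growth-restraining genes were lower. *Cdkn1c*, which encodes the cyclin-dependent kinase inhibitor p57, had 1903 reads in wild type (RPKM 35.8) and 832 in the library labelled Prep1-/- (RPKM 17.5), a ratio of 0.489 (0.450 to 0.531). *Phlda2*, a pleckstrin homology domain protein that restrains placental growth, had 5998 reads (RPKM 290) and 2970 reads (RPKM 161), a ratio of 0.554 (0.530 to 0.579). Their ratios lay close together, with that of *Phlda2* 1.13 times that of *Cdkn1c* (1.03 to 1.24).

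The transporter gene between them stood nearer to 1. *Slc22a18*, a member of the organic cation transporter family, had 162 reads in wild type (RPKM 4.90) and 111 in the other library (RPKM 3.77). Its ratio of 0.768 (0.596 to 0.981) did not pass the threshold of 0.7, and its interval spans it. *Kcnq1*, the potassium channel gene that gives the domain its name, had only 10 and 4 reads (RPKM 0.151 and 0.0770). The interval of its ratio ran from 0.102 to 1.55, so no difference was detectable at this depth. *Kcnq1ot1*, the non-coding RNA read antisense to it, was not analysed here.

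The members of this domain nearest to *H19* had ratios nearer to 1 than those of *Cdkn1c* and *Phlda2*. *Cd81*, a tetraspanin of the cell surface, was the member with the highest RPKM in both libraries, 392 (13390 reads) in wild type and 306 (9341 reads) in the Prep1-/- library. Its ratio was 0.780 (0.760 to 0.801). *Tssc4*, a factor of spliceosome assembly, had 1914 reads (RPKM 32.3) and 1661 reads (RPKM 31.4), a ratio of 0.970 (0.908 to 1.04) whose interval includes 1. The labels name no step that marks strand, although the study speaks of sense-strand transcripts, so how reads of genes overlapping on opposite strands were assigned is uncertain. All 1845 bases of *Tssc4* lie within *Trpm5* on the other strand, but *Trpm5* was given only 5 and 2 reads. *Cd81* shares 948 bases with the opposite-strand transcript *R74862*, which had 158 and 95 reads.

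**Figure D1:**
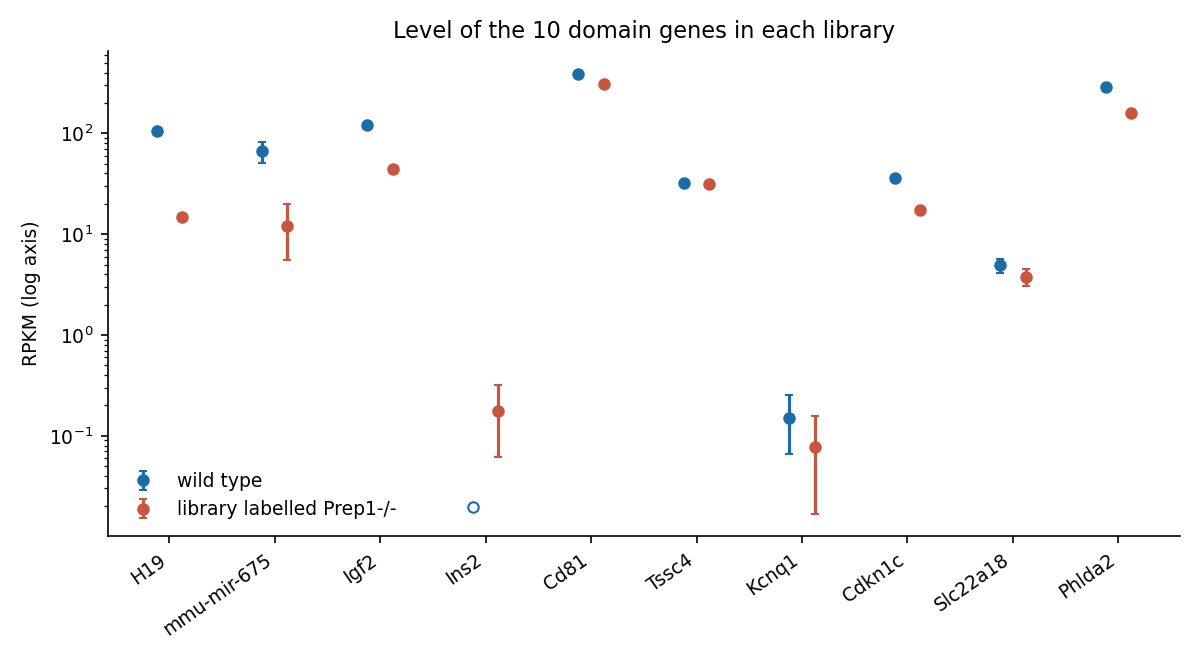
RPKM (log axis) of the 10 genes, ordered along the chromosome, in the wild type library (blue) and the library labelled Prep1-/- (red); bars are exact 95% Poisson intervals of the read count, and the open circle is a count of 0. *H19* and mmu-mir-675 show the widest gap between the libraries among genes with RPKM above 1, and *Tssc4* the narrowest.

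Of the 8 members with wild type RPKM above 1, 5 were called lower (*H19*, mmu-mir-675, *Igf2*, *Cdkn1c* and *Phlda2*), and 0 of the 8 with Prep1-/- RPKM above 1 were called higher. All 5 had their whole interval under 0.7. Since the microRNA row holds reads of *H19*, this is 4 of 7 separate genes. The background shares of 13.8% and 7.20% are given for scale only, because the genes were selected on this comparison. The median log2 ratio was -0.91 over the 10 members and -0.02 over all 22633 genes with finite values. Together the members took 0.257% of all reads in wild type, and in the Prep1-/- library they took 0.119%.

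In the order of their ratios, most of the pairs of members compared were separated beyond counting error. *Kcnq1* and *Ins2*, with few reads, were left out, and mmu-mir-675 was compared with *H19* only. The interval of *Kcnq1* (0.102 to 1.55) spans the ratios of its neighbours in this order, *Cdkn1c* (0.489) and *Phlda2* (0.554). *Slc22a18* stood 1.38 times above *Phlda2* (1.07 to 1.78) and *Tssc4* stood 1.24 times above *Cd81* (1.16 to 1.34). *Igf2* and *Cdkn1c* were also separated (1.35 times, 1.24 to 1.47). *H19* and its microRNA, and *Slc22a18* and *Cd81* (1.02 times, 0.794 to 1.31), were not. Separations with a limit near 1 may be lost if 1 count is not 1 independent fragment. With 1 library per genotype, the spread between cultures of one line is unknown and no difference has a replicate check.

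The order of the levels depended on the measure of length. By RPKM, wild type levels fell from *Cd81* through *Phlda2*, *Igf2* and *H19* to mmu-mir-675, and in the Prep1-/- library *H19* moved from the fourth to the sixth place. By reads per kilobase of annotated exon, *Igf2* was first in wild type with 8343, followed by *Phlda2* with 7923, *Cd81* with 5899 and *H19* with 2919. On that scale *Cd81* led in the Prep1-/- library with 4115, *Phlda2* had 3923, *Igf2* 2698 and *H19* 365.

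**Figure D2:**
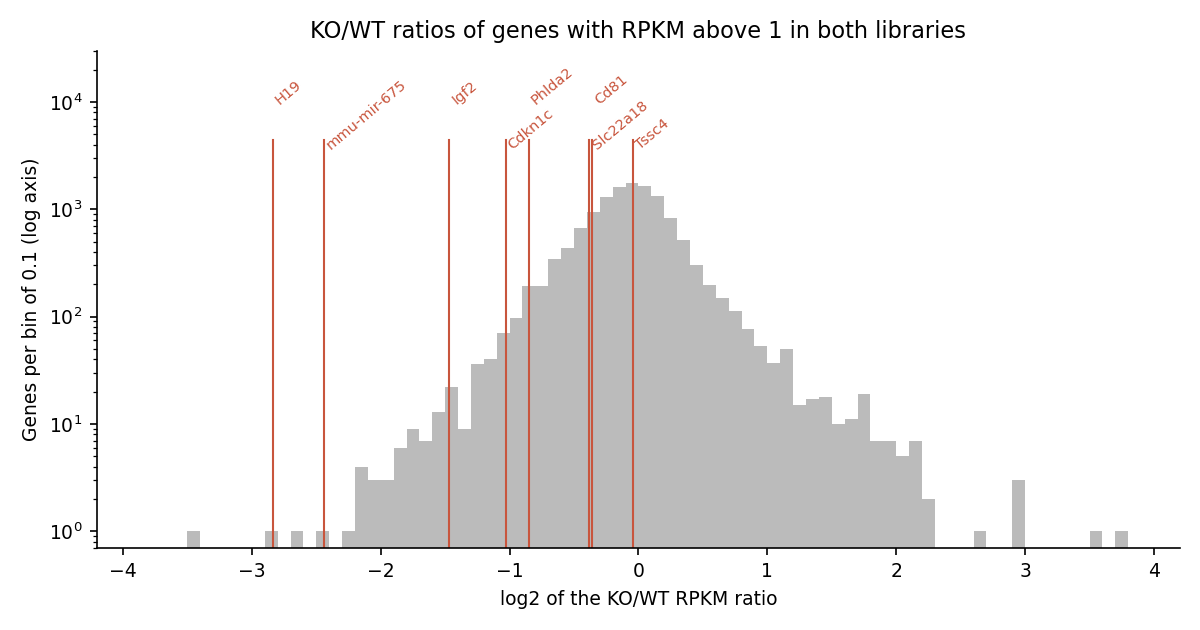
Number of genes (log axis) by log2 KO/WT ratio in bins of 0.1, for the 13218 genes whose RPKM was above 1 in each library; red lines mark the 8 domain genes that meet the same condition. *H19* (-2.84), mmu-mir-675 (-2.44) and *Igf2* (-1.47) lie in the lower tail, while *Tssc4* (-0.04) lies at the centre.

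The next comparison asked how far along the chromosome the lower values reached. The window ran from *Ctsd* to *Dhcr7* (chr7:149557053-151034315, 1.48 Mb) and held 36 genes of the tables, among them 19 of a list of 21 neighbours. Of the 10 neighbours with wild type RPKM above 1, 4 were called lower, and of the 11 with Prep1-/- RPKM above 1, 1 was called higher. The shares over all genes were 13.8% and 7.20%. The median log2 ratio of the 18 neighbours with finite values was -0.34, against -0.02 over all genes. For genes with RPKM above 1 in both libraries, it was -0.34 for the 13 non-member genes of the window, -0.11 for the 1029 chromosome 7 genes outside it and -0.07 for all 13218.

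On the *H19* side of the window, 2 genes were called lower. *Ctsd*, the lysosomal protease cathepsin D, had 18713 reads in wild type and 10608 in the Prep1-/- library, a ratio of 0.634 (0.619 to 0.649). *Lsp1*, an actin-binding protein of leukocytes, had 342 and 145 reads, a ratio of 0.476 (0.388 to 0.577). The troponin gene *Tnnt3*, between *Lsp1* and *H19*, had 84 and 62 reads and a ratio of 0.829 (0.585 to 1.16). *Syt8*, a synaptotagmin, had 18 reads in wild type and 0 in the other library, at least 5.37-fold lower against a floor of 3 reads with the 18 taken as exact. Its level was below RPKM 1, and the exact interval of its ratio reached up to 0.254. *Tnni2*, another troponin gene, had 15 and 4 reads. *Mrpl23*, the neighbour nearest to *H19*, was given 1 and 2 reads and no finite RPKM.

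Between *Ins2* and *Cd81* the values were mixed. *Ascl2*, a trophoblast transcription factor imprinted with the *Kcnq1* domain, had 715 and 505 reads and a ratio of 0.790 (0.703 to 0.886). *Tspan32*, a tetraspanin of blood cells, was the neighbour called higher, with 106 reads in wild type and 193 in the Prep1-/- library, a ratio of 2.03 (1.60 to 2.61) at an RPKM of 0.786 and 1.59. *Th*, the tyrosine hydroxylase gene next to *Ins2*, had 5 reads in each library.

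Beyond *Phlda2*, genes that passed neither threshold stood beside genes called lower. *Nap1l4*, a histone chaperone, had a ratio of 0.788 (0.749 to 0.829, 3652 and 2575 reads). *Cars*, the cysteinyl-tRNA synthetase, had one of 0.895 (0.852 to 0.941, 3550 and 2842 reads). Both intervals lie wholly under 1. For *Tnfrsf22*, a decoy receptor, the ratio was 1.20 (1.02 to 1.41, 294 and 316 reads). *Osbpl5*, an oxysterol-binding protein homologue imprinted in placenta, was called lower with 647 and 352 reads, a ratio of 0.609 (0.533 to 0.694). *Tnfrsf23* (ratio 0.831), *Mrgpre* (0.685) and *Tnfrsf26* (0 and 2 reads) were under RPKM 1.

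The lowest called neighbour lay at the far end of the window. *Dhcr7*, which catalyses the last step of cholesterol synthesis, had 3066 reads in wild type and 752 in the Prep1-/- library. Its ratio of 0.275 (0.253 to 0.297) was below that of *Igf2*. *Nadsyn1*, the NAD synthetase gene whose start lies next to that of *Dhcr7*, had a ratio of 0.938 (0.735 to 1.19).

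**Figure D3:**
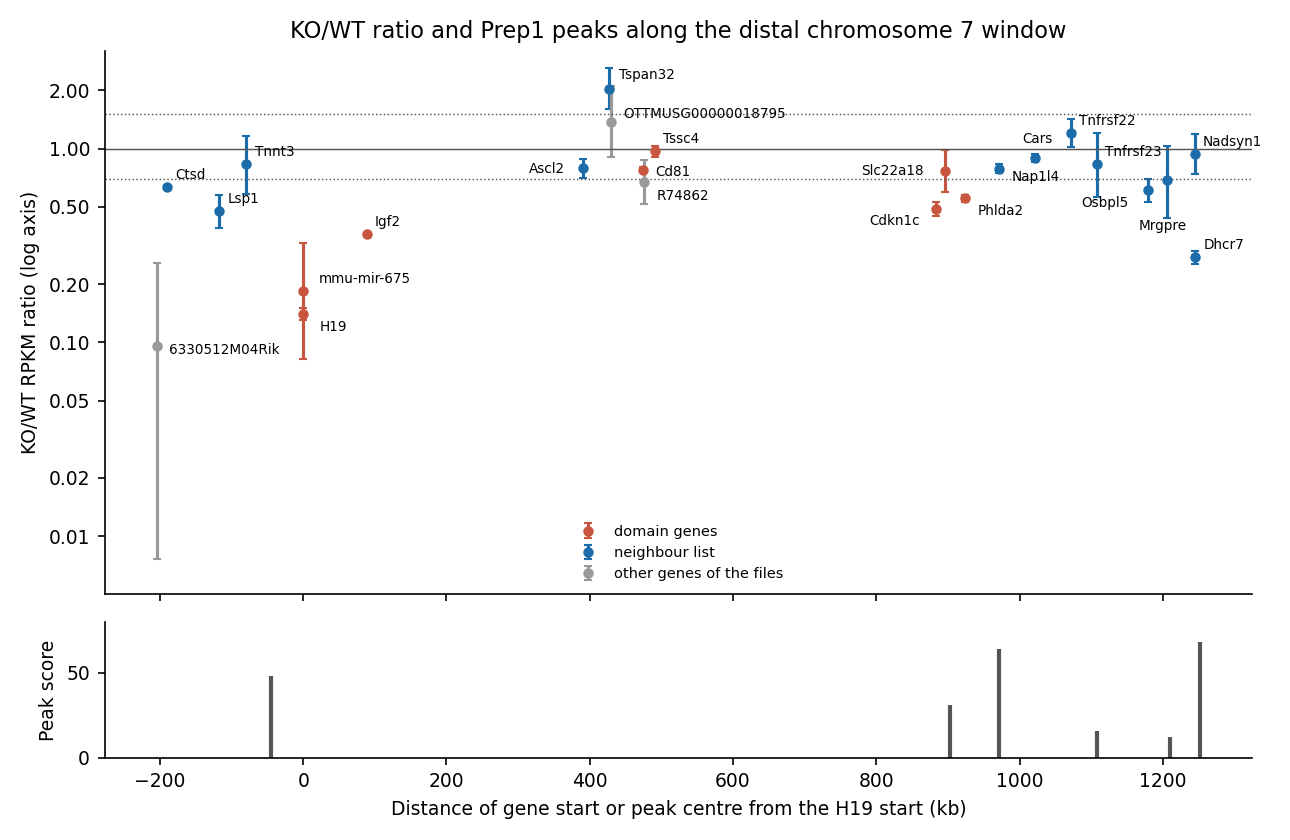
Upper panel, KO/WT ratio (log axis) with exact 95% binomial intervals against the distance of the gene start from the *H19* start, for the 24 window genes with at least 20 reads in the 2 libraries together; dotted lines mark 0.7 and 1.5. Lower panel, score of the 6 Prep1 peaks at the same distances. *H19* and mmu-mir-675 (0.140 and 0.184) and *Igf2* (0.362) lie low, *6330512M04Rik* at the left-hand end is lower still on 34 and 2 reads, *Tssc4* and *Cd81* lie nearer to 1, and *Dhcr7* (0.275) at the right-hand end lies below *Igf2*.

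The Prep1 ChIP-seq peaks are a readout that the choice of genes did not use. The window held 6 of the 3902 peaks, 4.06 per Mb against 1.91 per Mb over chromosome 7. These densities were not adjusted for the number of expressed genes, and the study reports that Prep1 binds mostly to promoters. With wild type RPKM above 1 there were 8 members and 13 other genes in the 1.48 Mb window. On the rest of chromosome 7 there were 1082. The 13 other genes include mmu-mir-483, which had 0 reads in both libraries. Scores are the fold enrichment over input as rounded in the peak list, with a median of 21 over all peaks (lowest 4, highest 336). They are not the scores of the study's text and figures, which it defines from the p-value. The only member whose span held a peak was *Slc22a18*. That peak (chr7:150666555-150667217, score 31) had its centre in an intron 7.26 kb downstream of the gene start, 19.9 kb upstream of the *Cdkn1c* start and 21.6 kb from the *Phlda2* start.

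No peak overlapped any other member. For *H19* and its microRNA the nearest peak (chr7:149718933-149720038, score 48) lay 44.6 kb and 43.6 kb downstream of the start, in an intron of *Mrpl23* 781 bases from the start of that gene. The same peak was the nearest to *Igf2*, at 133 kb, and to *Ins2*, at 166 kb. For *Kcnq1*, *Tssc4* and *Cd81* the nearest peak was 374 to 428 kb away.

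The other 4 peaks lay beyond *Phlda2*. Those at *Nap1l4* (chr7:150734579-150735531, score 64) and *Tnfrsf23* (chr7:150871400-150872158, score 16) had their centres 58 and 2 bases upstream of the gene starts. One of score 12 lay 3285 bases upstream of *Mrgpre* (chr7:150973462-150973918). The strongest, of score 68, lay in an intron of *Dhcr7* (chr7:151015446-151016447), 6896 bases downstream of its start. *Nap1l4*, with a peak at its start, was not called lower, and *Dhcr7*, with a peak in its intron, was.

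Prep1 with its partner Pbx is known to prefer a decamer, searched here as TGANTGACAG on both strands. It was found in 950 of the 3902 peaks (24.3%) and in 2 of the 6 peaks of the window. Those were the peak in the *Mrpl23* intron, 44.6 kb from the *H19* start, and the peak inside *Slc22a18*. This exact string is stricter than the study's own scored motif search, which reported a decamer in most of the peaks. The shorter core TGACAG was in 2278 peaks (58.4%), among them also the peak inside *Dhcr7*. The sequences are shown because they are the only decamer matches within peaks of the window. Outside the peaks only promoter windows were searched. Each is read 5′ to 3′ on the strand given, from mm9, with the match in capitals. The first spans chr7:150666752-150667051 (minus strand) inside the *Slc22a18* peak, with the match at 150666897-150666906. The other 2 lie in the *Mrpl23* peak, at chr7:149719215-149719284 (minus strand, match at 149719245-149719254) and chr7:149719656-149719725 (plus strand, match at 149719686-149719695).
Slc22a18 intron: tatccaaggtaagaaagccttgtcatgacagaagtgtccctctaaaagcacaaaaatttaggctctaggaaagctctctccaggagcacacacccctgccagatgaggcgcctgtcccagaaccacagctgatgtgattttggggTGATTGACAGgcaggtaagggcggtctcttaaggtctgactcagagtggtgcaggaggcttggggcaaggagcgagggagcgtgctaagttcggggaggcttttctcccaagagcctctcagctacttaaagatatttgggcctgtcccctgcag
Mrpl23 intron, minus strand: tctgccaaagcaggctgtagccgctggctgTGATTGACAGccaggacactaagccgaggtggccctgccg
Mrpl23 intron, plus strand: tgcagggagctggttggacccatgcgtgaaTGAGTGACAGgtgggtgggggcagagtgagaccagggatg
RefSeq promoter windows of 300 bases (GRCm38.p6) were at hand for 5 members, *Igf2* with 4 of them and *Cd81*, *Tssc4*, *Slc22a18* and *Phlda2* with 1 each. The decamer was in 0 of these 8, and in 0.874% of all 32851 promoter windows. The core TGACAG was in 1 of these 8, a window of *Igf2*, and in 19.2% of all. A match or its absence describes these letters only and does not show binding.

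*Igf2* acts through the IGF receptors, and the rest of the IGF pathway was read beside it. Of the 15 listed genes with wild type RPKM above 1, 4 were called lower, and 0 of the 15 with Prep1-/- RPKM above 1 were called higher, against 13.8% and 7.20% over all genes. The median log2 ratio over the 19 genes was -0.16. The other ligand genes were hardly read, with 14 and 2 reads for *Igf1* and 0 in both libraries for *Ins1*.

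The 3 receptor genes had ratios between 0.808 and 0.922. *Igf1r*, the signalling receptor, had 3334 and 2750 reads (ratio 0.922), *Insr*, the insulin receptor, 854 and 617 reads (0.808), and *Igf2r*, an imprinted receptor that clears Igf2 protein, 5161 and 4000 reads (0.867). Among the binding proteins, which hold IGFs outside the cell, *Igfbp4* (1529 and 742 reads, ratio 0.543) and *Igfbp6* (149 and 67 reads, ratio 0.507) were called lower. *Igfbp5* (333 and 401 reads, ratio 1.35, 1.16 to 1.56) and *Igfbp7* (146 and 192 reads, 1.47, 1.18 to 1.84) lay on the other side of 1 without passing 1.5. *Igfbp2*, with the most reads of that group, had a ratio of 1.05 (11581 and 10916 reads), so that 3 of the 7 binding protein genes had their whole interval above 1 and 3 below.

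Of the adaptors behind the receptors, *Irs2* had a ratio of 0.523 (5895 and 2758 reads) and *Grb10*, itself imprinted and a brake on receptor signalling, 0.667 (31963 and 19061 reads). *Irs2*, *Insr* and, among the genes below, *Ctcf* and *Elavl1* lie on chromosome 8, where ratios were low as a whole (median 0.779 over 702 genes past RPKM 1 in each library). The 3 genes whose proteins bind *Igf2* mRNA all had ratios above 1, with 1.21 for *Igf2bp1*, 1.45 for *Igf2bp2* and 1.27 for *Igf2bp3*, and none passed 1.5.

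Of 9 genes known to act on *H19* or *Igf2* or their control region, 6 had ratios above 1 and 2 were called lower, beside 13.8% called lower over all genes. *Ctcf*, the insulator protein, had a ratio of 1.10 (3359 and 3312 reads), and *Trim28* and *Zfp57*, which hold methylation at imprinted regions, 1.17 (61554 and 64342 reads) and 1.10 (16105 and 15852 reads). *Plagl1*, an imprinted zinc finger factor known to act on *H19* and *Igf2*, was called lower, with 4105 and 2086 reads and a ratio of 0.568 (0.539 to 0.599). *Hmga2* was called lower as well, with 202 and 122 reads and a ratio of 0.677 (0.535 to 0.850). The 6 microRNA processing genes had 0 calls in either direction. *Rnasen*, which encodes the nuclease Drosha, had a ratio of 1.11 (11208 and 11159 reads), and *Elavl1*, known to bind *H19* beside the microRNA, 1.05 (7842 and 7352 reads).

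**Figure D4:**
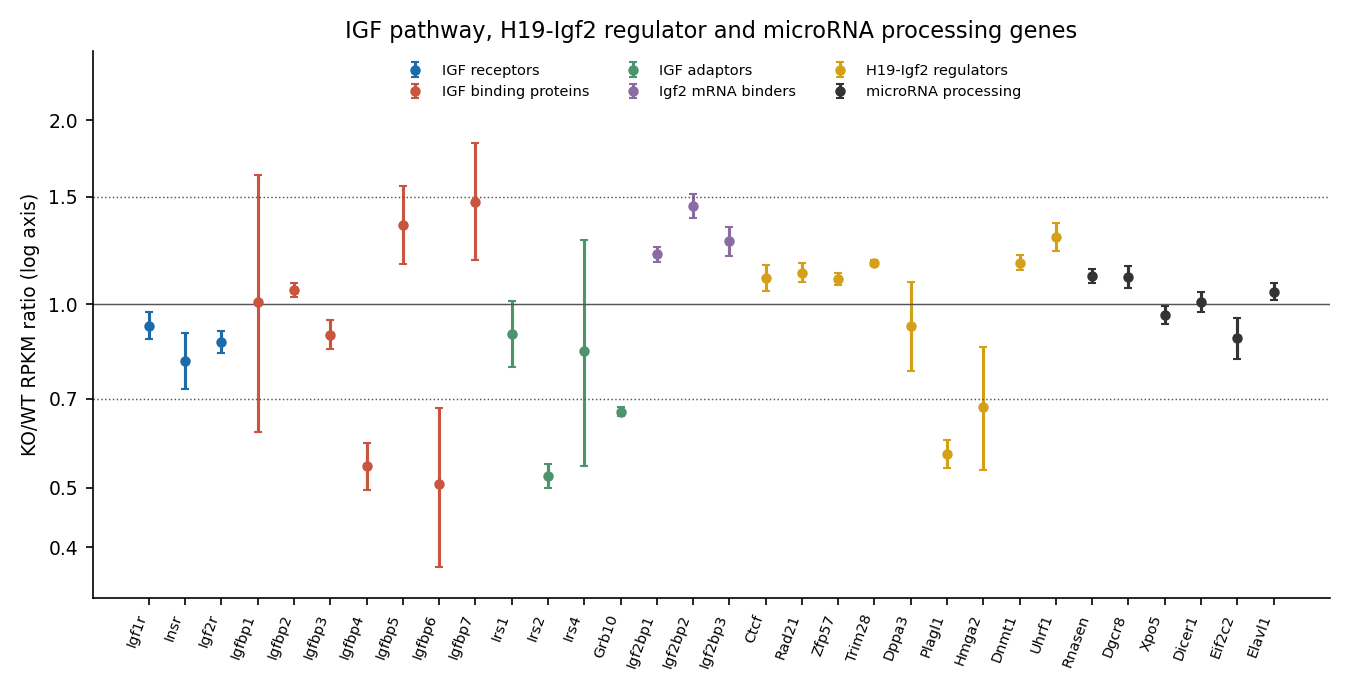
KO/WT ratio (log axis) with exact 95% binomial intervals of the listed IGF receptor, binding protein, adaptor, mRNA binder, *H19*-*Igf2* regulator and microRNA processing genes with at least 20 reads in the 2 libraries together; dotted lines mark 0.7 and 1.5. *Igfbp4*, *Igfbp6*, *Irs2*, *Grb10*, *Plagl1* and *Hmga2* lie under 0.7 and no gene lies above 1.5.

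Other imprinted domains were read for comparison. In the *Dlk1*-*Dio3* domain on chromosome 12, the maternal non-coding RNA *Meg3* showed a ratio of 1.19 (9387 and 10008 reads) and the paternal *Dlk1* one of 0.972 (2847 and 2476 reads). *Dio3*, a thyroid hormone deiodinase, was called lower, with 152 and 85 reads and a ratio of 0.628 (0.474 to 0.821). It was 1 of the 4 genes of that domain with wild type RPKM above 1. Of 13 genes of other domains with wild type RPKM above 1, 4 were called lower, *Grb10* and *Plagl1* among them with *Sgce* (ratio 0.699) and *Magel2* (0.538). The amino acid transporter gene *Slc38a4* (1.66, 2348 and 3479 reads) was the 1 called higher of 12. Over all genes these shares were 13.8% and 7.20%. *Gnas*, with the most reads of that list, had a ratio of 0.746 (45967 and 30650 reads). The median log2 ratio of the 16 listed genes of other domains was -0.26. It was -0.91 for the 10 described above, a set selected on the low value of *H19*.

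Markers of trophoblast and primitive endoderm were mostly lower in the same library. Of the trophoblast list, 5 of the 6 genes with wild type RPKM above 1 were called lower (*Cdx2* 0.221, *Hand1* 0.325, *Krt7* 0.489, *Eomes* 0.504 and *Gcm1* 0.629), beside 13.8% of all genes. The sixth was *Ascl2*, which is also a neighbour above, and *Elf5* had 3 and 7 reads. The summed RPKM of the 7 genes was 76.0 in wild type and 37.5 in the library labelled Prep1-/-. Of the primitive endoderm list, 3 of 4 genes with wild type RPKM above 1 were called lower (*Gata4* 0.339, *Gata6* 0.456 and *Dab2* 0.667). The remaining one, *Sox7*, had 119 and 148 reads and a ratio of 1.39 (1.09 to 1.79). The summed RPKM of the 8 primitive endoderm genes was 10.9 and 6.29. No marker of these 2 lists was at 0 reads in either library.

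Markers of ES cells were present in both libraries. Their summed RPKM was 1201 in wild type and 1470 in the Prep1-/- library, and 7 of the 8 had ratios above 1, with *Esrrb*, which had the most reads, at 1.32, *Pou5f1* at 1.11 and *Klf4* called higher at 1.58. The exception was *Zfp42* on chromosome 8 (0.801). Fibroblast markers summed to an RPKM of 27.9 and 32.3. Of the 8, 6 had ratios above 1, but only 2 had their whole interval above 1 and 1 had it below. Over all genes, 10847 of 22633 had ratios above 1. *Col1a1* had a ratio of 1.36 (1.25 to 1.48) and *Postn*, with 6 and 33 reads, one of 5.43 (2.54 to 18.0), while *Twist2* was called lower (0.588) and *Lum* was at 0 reads in wild type. *Klf4* was 1 of 8 ES markers past RPKM 1 and *Twist2* 1 of 5 fibroblast markers, beside 7.20% higher and 13.8% lower over all genes. The part of these markers in the values of *H19*, *Igf2*, *Cdkn1c* and *Phlda2* was not tested.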

How the data were processed

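The RNA-seq tables were made by the authors with RSEM on paired-end reads of polyA+ libraries against an Ensembl gene set, and hold deposited read counts and deposited RPKM values for the same genes. RPKM equals the count plus 1 divided by a length and a library factor, so the KO/WT RPKM ratio is 1.12 times the ratio of the counts plus 1. The summed counts (29596294 and 25717811) exceed several-fold the number of reads stated in the study's methods. Thus 1 count may not be 1 independent fragment and the intervals may be too narrow. The deposited peak list was called by the authors with MACS on reads aligned with BWA to mm9, and its score is the rounded fold enrichment.

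Ratios were taken from the deposited RPKM without a pseudocount, over the 22633 genes with finite values in both libraries (85 were listed as infinite). There was 1 library per genotype, so no test was run. Intervals are exact 95% binomial intervals of the share of the 2 libraries' reads, and a count of 0 was set at 3 reads for a bound. The calls and intervals were tried on simulated counts that held counting error only, the error the intervals assume. That trial covers neither a wider spread between libraries nor the peak and sequence steps. Positions come from GENCODE M1 on mm9 (NCBIM37), in which 21446 genes had an identifier. Python 3.11.15 with scipy 1.17.1 was used. The members and lists were chosen with earlier results of these data known. The genes named are all members, the neighbours, of each list up to 4 genes past a threshold or with the most wild type reads, *Pknox1*, and the 3 genes nearest to *H19* in ratio. For some lists fewer were named, and others, such as *Ctcf*, *R74862*, *Igfbp5* and the further cell type markers, were named after their values were seen. Alternatives covered library scaling, pseudocounts, RPKM and read filters, thresholds and peak criteria.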

Additional observations from a re-analysis of the deposited data

How the results depend on the processing

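The number of members called lower was 5 under 7 of the 9 alternatives, 6 with no RPKM filter (*Kcnq1* added) and 4 at thresholds of 0.5 and 2 (*Phlda2* lost). No ratio of a called member changed direction, and the ratios of *H19* and mmu-mir-675 stayed within their intervals. Those of others left their narrow counting intervals, with *Igf2* at 0.372 and *Cd81* at 0.803 under scaling by summed reads, *Igf2* at 0.379, *Phlda2* at 0.580 and *Cd81* at 0.816 under scaling by the median ratio, and *Ins2* at 1.15 with a pseudocount of 1. With no RPKM filter, 1 member was higher (*Ins2*), 8 neighbours were lower and 2 higher. At thresholds of 0.5 and 2, 2 neighbours and 0 genes of the IGF list were lower. The neighbour called higher was lost (0) with a pseudocount of 1 and with RPKM above 5. Scaling by summed reads put 1 gene of the IGF list above 1.5, and scaling by the median ratio 2. Within 20 kb of a member there was 1 peak. The shares of 13.8% and 7.20% over all genes were taken at the main setting only, so the counts under other settings have no such share beside them. Chosen after seeing the data, a count over every window gene but the members gave 5 of 13 lower and 1 of 14 higher. Both totals include mmu-mir-483, which had 0 reads in both libraries and was not called. On chromosome 7 outside the window, 15.9% (172 of 1082) were called lower. No paired analysis was possible because each group holds 1 library, and for the same reason no library could be left out.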
